A study of Bos taurus with 21 samples.

Results

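The myogenic transcription factors are the proteins that set and carry out the skeletal muscle programme. The genes considered were *MYF5*, *MYOD1*, *MYOG* and *MYF6*, *PAX7*, and *MEF2A*, *MEF2C* and *MEF2D*, and every non-control probe was taken whose RefSeq transcript belonged to one of these 8 genes in the cattle annotation. This found 17 probes of 6 genes among the 43653 probes of the array. *PAX7* had no entry in the annotation used, so no probe could be assigned to it, and *MEF2D* had an entry but no probe by this rule. Neither gene was analysed here. All 17 probes were well above background on all 21 arrays, and all 17 passed the expression filter.

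RNA was measured in foetal muscle of 2 French beef breeds, the heavily muscled Blonde d'Aquitaine (BA) and the Charolais (CH), at 110, 180, 210 and 260 days post conception (dpc). The BA groups had 3, 2, 3 and 2 animals in order of stage and the CH groups 2, 3, 3 and 3, each on 1 single-colour array. All foetuses came from first-calf cows inseminated with semen of their own breed, no treatment is named for them, and each breed had 2 sires. In order of stage the BA groups had 2, 1, 2 and 1 sires and the CH groups 2, 2, 1 and 2, so stage and sire overlapped in part. Of the BA foetuses 2, 0, 1 and 0 were male at these stages, and of the CH foetuses 0, 1, 2 and 2. Breed stands for the whole genetic background, since no genotype of a foetus is used here, and different sires served the 2 breeds, so breed and sire cannot be told apart. The labels name the *Longissimus thoracis* and the methods the *Semitendinosus*, so the muscle is called muscle here. The arrays carried Cy3-labelled RNA on 6 slides scanned on 3 days. Day 2 held 12 arrays with all 8 groups, whereas days 1 and 3 held 5 and 4 arrays. Each slide was scanned on a single day. All arrays of day 3 were on the same slide, so that day and that slide cannot be told apart.

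*MYF5* and *MYOD1* commit precursor cells to the muscle lineage, *MYOG* drives myoblasts into differentiation and fusion, and *MYF6* (also MRF4) is the member that predominates in formed fibres. All 4 are basic helix-loop-helix (bHLH) proteins, which bind DNA as pairs with the widely expressed E proteins. The MEF2 proteins are MADS-box factors that act beside them on the promoters of contractile and metabolic genes, and class II histone deacetylases hold MEF2 proteins in a repressed state. *MYF5* and *MYF6* are neighbouring genes in the cattle annotation.

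Each level is a normalized log2 intensity, the log2 of the spot's intensity less the 75th percentile of its array, shifted by 1 constant for all arrays that puts their typical median probe at 0. Levels of different probes are not compared with each other. Differences are in the same log2 unit and were tested with limma across all 20132 probes that passed the filter, with Benjamini-Hochberg adjustment, and a probe was called at an adjusted p under 0.05. The number of arrays, 2 or 3 a group, limits the precision, and the foetuses are separate animals. Between 29017 and 34501 probes of an array were well above background. Muscle fibre markers were clearly present: the mean level of 6 of them (*ACTA1*, *CKM*, *DES*, *MYL1*, *TNNC2* and *RYR1*) lay between 8.58 and 8.98 on the 110 dpc arrays and between 10.44 and 10.77 on those of 260 dpc. In whole muscle, fewer cells of a type and less RNA per cell cannot be told apart.

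Between 110 and 260 dpc, with the breeds averaged, 10 of the 17 probes were called, 6 higher and 4 lower at 260 dpc. Of all 20132 probes 64.1% were called, 33.3% higher and 30.8% lower, so the share among the myogenic factors was near the background. *MYF5* fell, *MYF6* rose, and *MEF2A* rose on 2 of its 3 probes. *MYOG* fell on one probe and rose on the other, and no probe of *MYOD1* or *MEF2C* was called on the average. The median difference of the 17 probes was −0.11 against 0.035 over all probes. At 9 of the 17 probes the values of the 5 foetuses of 110 dpc and the 5 of 260 dpc did not overlap, as at 47.1% of all probes.

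**Figure D1:**
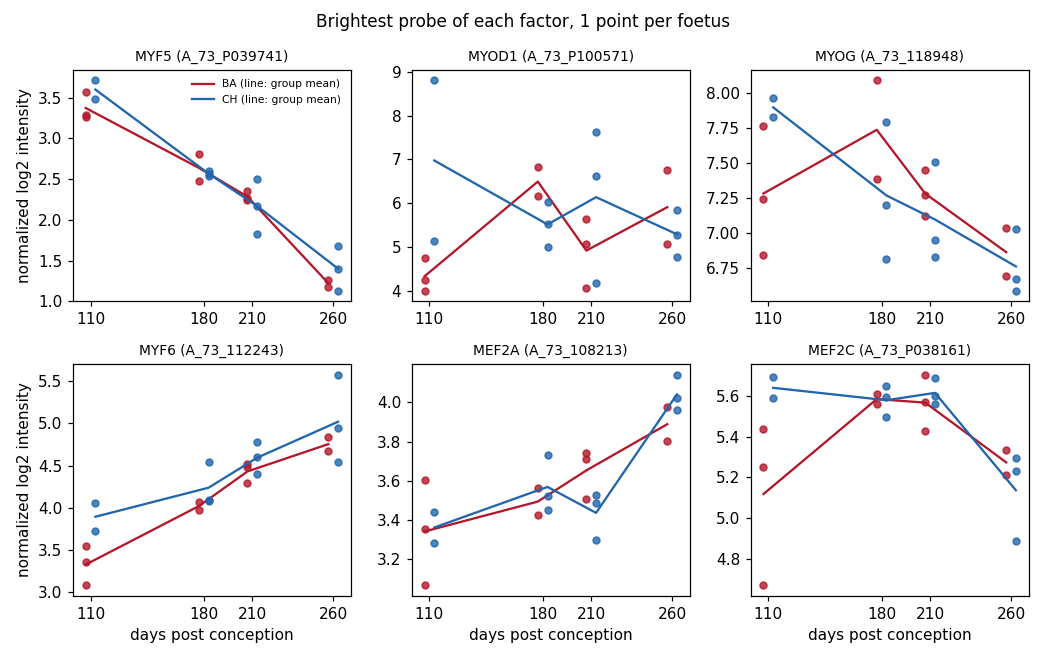
Normalized log2 intensity (y axis) of the brightest probe of each of the 6 genes against days post conception (x axis), with 1 point per foetus, BA in red and CH in blue, and lines through the group means; the panels have different y scales. *MYF5* went from between 3.26 and 3.71 at 110 dpc to between 1.13 and 1.68 at 260 dpc, *MYF6* went the other way, and the points of *MYOD1* spread from 4.00 to 8.81 with no order by stage.

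*MYF5*, the earliest of the determination factors, fell step by step in both breeds. On its brightest probe (A_73_P039741) the 3 BA foetuses of 110 dpc had levels of 3.29, 3.57 and 3.26 and the 2 CH foetuses 3.71 and 3.48. At 180 dpc the levels were 2.80 and 2.47 in BA and 2.60, 2.57 and 2.54 in CH. At 210 dpc they were 2.35, 2.24 and 2.26 in BA and 2.50, 2.17 and 1.83 in CH, and at 260 dpc 1.26 and 1.18 in BA and 1.13, 1.39 and 1.68 in CH. Every foetus of 260 dpc lay below every foetus of the earlier stages, and every foetus of 110 dpc above all others, whereas 180 and 210 dpc overlapped.

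From 110 to 260 dpc this probe changed by −2.17 (SE 0.13, limma adjusted p = 1.78e-10), a 4.52-fold fall. It was −2.15 in BA and −2.20 in CH. The other 2 probes of *MYF5* fell as well, by 2.28 (A_73_P100576, limma adjusted p = 3.92e-11) and by 1.87 (A_73_119356, limma adjusted p = 2.04e-09). On the day-2 arrays alone the 3 differences were −2.17, −2.25 and −1.84.

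The stages are not evenly spaced, the middle step being the shortest, and the steps were not tested against each other. From 110 to 180 dpc the brightest probe fell by 0.88 (limma adjusted p = 8.24e-05), and from 210 to 260 dpc by 0.92 (limma adjusted p = 1.4e-05). Between 180 and 210 dpc its difference was −0.38 (limma adjusted p = 0.0603), while the other 2 probes were called at −0.46 and −0.50. The 3 probes of the gene ran closely together, with correlations of 0.93 to 0.98 over the 21 arrays and of 0.62 to 0.75 after the group means were taken out. The brightest probes most like the first *MYF5* probe over the 21 arrays, among 7893 genes, were those of *DNAL4*, a dynein light chain (r = 0.976), and *MCM4*, a subunit of the replicative helicase (r = 0.969). These 21 arrays share the stages, so such correlations describe a common course and are no test.

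*MYF6*, the factor of formed fibres, rose on all 3 of its probes. On the brightest (A_73_112243) the BA foetuses of 110 dpc had levels of 3.54, 3.35 and 3.08 and the CH foetuses 4.06 and 3.72. At 180 dpc the levels were 3.97 and 4.07 in BA and 4.09, 4.08 and 4.54 in CH. They were 4.29, 4.48 and 4.52 in BA and 4.40, 4.78 and 4.60 in CH at 210 dpc, and 4.83 and 4.68 in BA and 4.94, 5.58 and 4.54 in CH at 260 dpc. The lowest foetus of 260 dpc lay above the highest of 110 dpc, and neighbouring stages overlapped.

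Over the 4 stages *MYF6* thus rose by 1.28 (SE 0.16, limma adjusted p = 2.84e-06), which is 2.43-fold. It was 1.39 on A_73_P034951 and 1.46 on A_73_P386356 (limma adjusted p = 2.19e-07 and 4.38e-07). On the brightest probe the difference was 1.43 in BA and 1.13 in CH. In the authors' table, which is not scaled between arrays, the CH difference was 0.76 and no longer called (limma adjusted p = 0.0618), and on the day-2 arrays alone it was 1.00 (limma adjusted p = 0.0809).

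The first step, 110 to 180 dpc, was called on all 3 *MYF6* probes, at 0.52, 0.65 and 0.92 in the order above. On the brightest probe this call was lost in the authors' table (0.54), with no filter, on the day-2 arrays alone (0.43), and when BA 110 dpc replicate 3, BA 180 dpc replicate 1 or 2, CH 110 dpc replicate 2 or CH 180 dpc replicate 3 was left out, with values from 0.44 to 0.54. No probe was called between 180 and 210 dpc, and from 210 to 260 dpc only A_73_P034951 was, at 0.36 (limma adjusted p = 0.0435). The 3 probes had correlations of 0.91 to 0.96 with one another. *METAP2*, a methionine aminopeptidase, was among the 2 most alike genes for every probe of *MYF6* (r = 0.936, 0.971 and 0.938). Over the 21 arrays the brightest probes of *MYF5* and *MYF6* had a correlation of −0.84.

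The 2 probes of *MYOG*, the differentiation factor, went opposite ways. The brighter one (A_73_118948) had 110 dpc levels of 6.85, 7.76 and 7.24 in BA and 7.97 and 7.83 in CH, and 260 dpc levels of 7.04 and 6.70 in BA and 7.03, 6.59 and 6.67 in CH. The 5 foetuses of 180 dpc lay between 6.81 and 8.09 and the 6 of 210 dpc between 6.83 and 7.51. In CH all 3 foetuses of 260 dpc were below both of 110 dpc, whereas in BA the stages overlapped.

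The dimmer *MYOG* probe (A_73_P100481) had 110 dpc levels of 0.43, 1.11 and 0.51 in BA and 1.67 and 1.32 in CH. At 180 dpc its levels were 1.62 and 1.93 in BA and 1.91, 2.31 and 1.59 in CH, and at 210 dpc 2.40, 2.54 and 2.24 in BA and 1.96, 2.88 and 3.04 in CH. At 260 dpc they were 3.63 and 3.94 in BA and 3.81, 4.04 and 4.55 in CH. All foetuses of 260 dpc lay above all others.

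Between 110 and 260 dpc the brighter *MYOG* probe fell by 0.78 (SE 0.21, limma adjusted p = 0.00374) and the dimmer one rose by 2.87 (SE 0.21, limma adjusted p = 3.42e-09), a 7.30-fold rise. The fall was −1.13 in CH (limma adjusted p = 0.00401) and −0.42 in BA (limma adjusted p = 0.252), and on the day-2 arrays alone the average was −0.80 and not called (limma adjusted p = 0.0717). With quantile normalization (−0.91) and in the authors' table (−0.83) the BA difference was called as well. The rise was 3.098 in BA and 2.64 in CH, both called, and 2.74 on the day-2 arrays alone. Both probes carry the same RefSeq transcript in the authors' files, so no single direction can be given for *MYOG*.

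The brighter *MYOG* probe had no called step between neighbouring stages, and the dimmer one was called at each, by 0.77, 0.66 and 1.45 in order. The step of 0.66 had a limma adjusted p of 0.0494 and was lost in 15 of the 21 fits that left out 1 array, and also with quantile normalization, median scaling, either other filter and slide as a block. The step of 0.77 was lost without BA 180 dpc replicate 2 (0.69) or CH 110 dpc replicate 2 (0.68) and on the day-2 arrays alone (0.72). Over the 21 arrays the correlation of the 2 probes was −0.46, and after the group means were taken out it was 0.53. They thus differed in their course over the stages while foetuses high for their group on one probe tended to be high on the other. The dimmer probe was most like *SDHB*, a subunit of mitochondrial complex II (r = 0.976), and *ACTG2*, the enteric smooth muscle actin (r = 0.976), and the brighter one most like *CD82*, a membrane tetraspanin (r = 0.902).

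**Figure D2:**
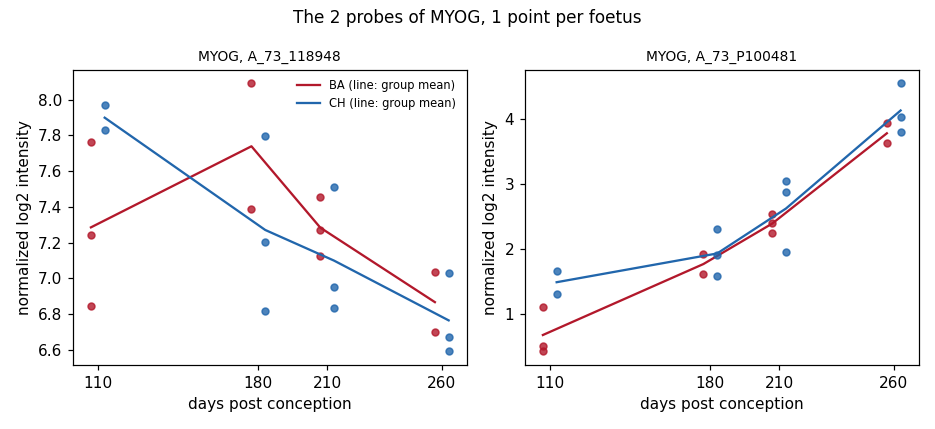
Normalized log2 intensity (y axis, different scales) of the brighter (left) and the dimmer (right) *MYOG* probe against days post conception (x axis), 1 point per foetus, BA in red and CH in blue, lines through the group means. The left probe fell by 0.78 between 110 and 260 dpc on the average of the breeds, and the right probe rose by 2.87.

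*MYOD1*, the second determination factor, showed no called difference between stages on any of its 3 probes. The differences between 260 and 110 dpc were −0.054 on A_73_P100571, −0.14 on A_73_P101056 and −0.24 on A_73_P049371, with 95% intervals of −1.44 to 1.33, −0.50 to 0.23 and −0.63 to 0.14. The first interval spans large changes in both directions. In the authors' table, where the median of all probes lay 0.36 lower at 260 than at 110 dpc, the other 2 probes were called at −0.53 and −0.63.

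The brightest *MYOD1* probe (A_73_P100571) was among the most variable of the array. Its levels were 4.00, 4.25 and 4.75 in BA and 5.14 and 8.81 in CH at 110 dpc, and 6.82 and 6.17 in BA and 5.52, 4.99 and 6.04 in CH at 180 dpc. They were 5.06, 5.64 and 4.06 in BA and 4.17, 6.63 and 7.61 in CH at 210 dpc, and 5.07 and 6.75 in BA and 5.84, 4.77 and 5.27 in CH at 260 dpc. The 2 CH foetuses of 110 dpc were farther apart than any other 2 foetuses of one group. The residual SD within groups was 1.15, at the 99.7th percentile of the 20132 probes. The other 2 probes had residual SDs of 0.29 and 0.31, at the 83.1st and 85.5th percentile, and ranges of 1.73 to 2.93 and of 0.53 to 1.75.

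Scan day was checked for this gene. On the brightest probe the 5 arrays of day 1 had levels of 5.52 to 8.81 with a median of 6.75. The 12 arrays of day 2 lay between 4.00 and 6.63 with a median of 5.07, and the 4 of day 3 between 4.17 and 6.82 with a median of 5.20. The highest 2 arrays of all, CH 110 dpc replicate 2 and CH 210 dpc replicate 3, were both of day 1, and the 3 days overlapped.

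With the 8 groups in the model, the difference of day 2 from day 1 was −1.56 (SE 0.48, limma adjusted p = 0.24) and that of day 3 from day 1 also −1.56 (SE 0.67). The limma test over the 3 days gave this probe an adjusted p of 0.286. Before adjustment over all probes, its limma p was 0.0177 over the 3 days and 0.00544 for day 2 against day 1. A difference between days on this probe is therefore not excluded. The limma test over the 3 days called 3 of the 20132 probes, or 0.0149%, none of them among the 17. The test over the 6 slides called 0 (limma adjusted p = 0.472 for this probe). The other 2 *MYOD1* probes differed between days 2 and 1 by −0.052 and 0.30. Day 1 held 4 CH arrays and 1 BA array, so scan day and breed overlapped in part.

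**Figure D3:**
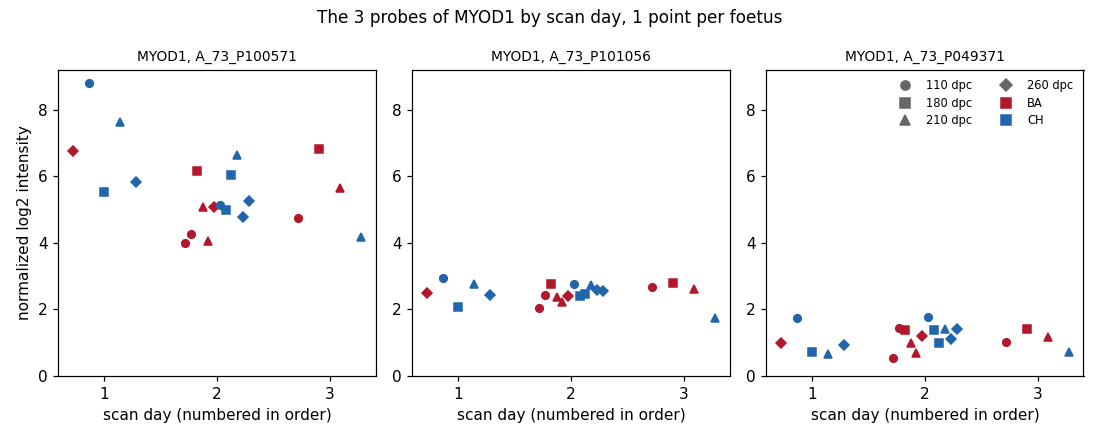
Normalized log2 intensity (y axis, one scale) of the 3 *MYOD1* probes by scan day (x axis), 1 point per foetus, BA in red and CH in blue, the shape giving the stage; points are spread sideways within a day for visibility. On the left probe day 1 reached 8.81 while day 2 stayed at 6.63 or below, whereas the other 2 probes stayed between 0.53 and 2.93 on all days.

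On the day-2 arrays alone the brightest *MYOD1* probe differed between 260 and 110 dpc by 0.41, against −0.054 on all arrays, and with slide as a block by −1.42. Leaving out CH 110 dpc replicate 2 gave 0.86, and leaving out CH 110 dpc replicate 1 gave −0.97. The direction also turned without BA 110 dpc replicate 3, BA 260 dpc replicate 1 (0.37) or CH 260 dpc replicate 2. In BA alone the difference was 1.58 and not called (limma adjusted p = 0.167), although both foetuses of 260 dpc lay above all 3 of 110 dpc. It was between 0.74 and 2.42 with single arrays left out, 0.94 on the day-2 arrays alone and −0.22 with slide as a block. In CH alone the difference was −1.68 and not called (limma adjusted p = 0.141), −3.52 and called without CH 110 dpc replicate 1 (limma adjusted p = 0.0072), and 0.15 without CH 110 dpc replicate 2. Each of these last 2 fits rests on a single CH array at 110 dpc. The average of −0.054 thus combines differences of opposite sign, and the breed by stage term of this probe had a limma adjusted p of 0.802.

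The brightest *MYOD1* probe had a correlation of 0.67 with A_73_P101056 and of 0.35 with A_73_P049371, and these 2 had 0.68 with each other. After the group means were taken out the values were 0.67, 0.061 and 0.51. Its most alike genes over the 21 arrays were *ZNF628*, a zinc finger protein (r = 0.991), and *WBP2*, a transcriptional coactivator (r = 0.978), both with a higher correlation than either other probe of *MYOD1*. No gene's brightest probe was like A_73_P049371 beyond r = 0.791, which was *HDAC11*.

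*MEF2A*, one of the MADS-box factors, rose late on 2 of its 3 probes. The brightest (A_73_108213) had 110 dpc levels of 3.60, 3.35 and 3.07 in BA and 3.44 and 3.28 in CH, and 260 dpc levels of 3.80 and 3.98 in BA and 4.02, 4.14 and 3.96 in CH. At 180 and 210 dpc the 11 foetuses lay between 3.30 and 3.74, below every foetus of 260 dpc. The rise was 0.61 (SE 0.10, limma adjusted p = 4.97e-05), a 1.53-fold rise, and 0.42 of it lay between 210 and 260 dpc (limma adjusted p = 0.00207). A_73_P326256 rose by 0.49 (limma adjusted p = 3.69e-04), while A_73_P102731 differed by −0.13 (limma adjusted p = 0.354).

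The rise of *MEF2A* was 0.55 in BA and 0.68 in CH on the brightest probe. In BA its call was lost without BA 260 dpc replicate 2 (0.46, limma adjusted p = 0.0602) and on the day-2 arrays alone (0.32), where the step from 210 to 260 dpc was 0.30 and not called either. In the authors' unscaled table, with its lower median at 260 dpc, the average difference was 0.22 and not called (limma adjusted p = 0.364), the step from 210 to 260 dpc was 0.010, and A_73_P102731 was called at −0.52, so the rise is one relative to the other probes of an array. The second probe did not run with the others, with correlations of −0.28 and −0.068, against 0.72 between the 2 that rose.

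*MEF2C*, the other MADS-box factor measured, had no probe called between 110 and 260 dpc on the average of the breeds. Its brightest probe (A_73_P038161) had levels of 5.25, 5.44 and 4.67 in BA and 5.69 and 5.59 in CH at 110 dpc, and of 5.21 and 5.33 in BA and 5.29, 4.89 and 5.23 in CH at 260 dpc. At 180 and 210 dpc all 11 foetuses lay between 5.43 and 5.70. BA 110 dpc replicate 3 and CH 260 dpc replicate 2 were the lowest foetuses of all.

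The difference of *MEF2C* between 260 and 110 dpc was −0.17 (95% interval −0.43 to 0.085) on the brightest probe, 0.11 on A_73_P371781 and −0.11 on A_73_P192487, none of them called. Without BA 110 dpc replicate 3 the first was −0.29 and called (limma adjusted p = 0.0129), and it was also called with quantile normalization (−0.34) and in the authors' table (−0.56). From 210 to 260 dpc the brightest probe fell by 0.39 (limma adjusted p = 0.0125) and A_73_P192487 by 0.34 (limma adjusted p = 0.0049), whereas A_73_P371781 differed by −0.096. The call of the brightest probe for this last step missed the threshold without BA 260 dpc replicate 1 (limma adjusted p = 0.0508) and with median scaling (−0.29, limma adjusted p = 0.0939).

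In CH the brightest *MEF2C* probe fell by 0.50 between 110 and 260 dpc (limma adjusted p = 0.0219) and in BA it differed by 0.16 (limma adjusted p = 0.474). The CH call was lost without CH 110 dpc replicate 1 (−0.45), CH 110 dpc replicate 2 (−0.55) or CH 260 dpc replicate 2 (−0.38). It was also lost with median scaling (−0.43), sex as a covariate (−0.45) and slide as a block (−0.47). The brightest and the dimmest probe had a correlation of 0.95, and each had 0.38 with A_73_P371781. The most alike gene was *RAD21*, a cohesin subunit (r = 0.899).

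**Figure D4:**
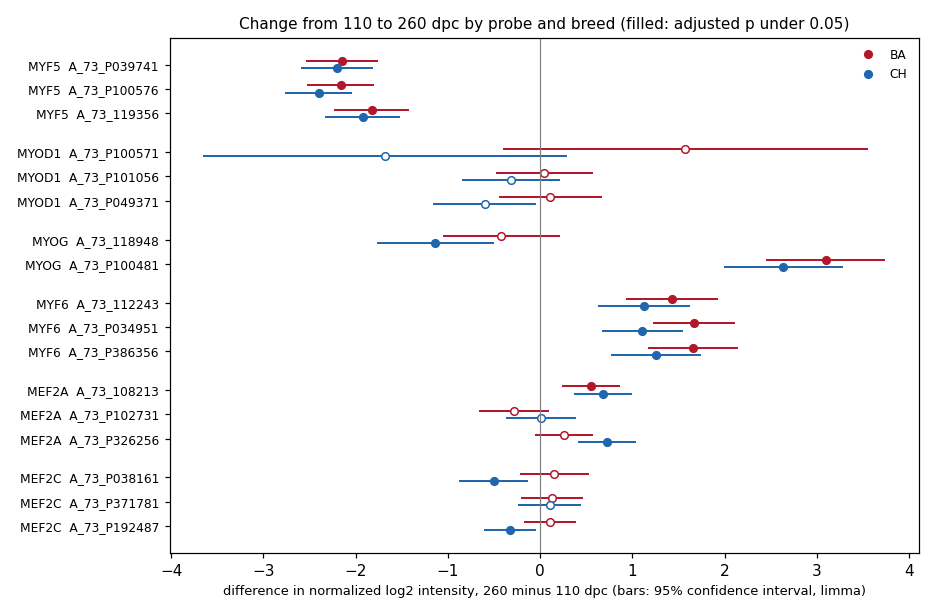
Difference in normalized log2 intensity between 260 and 110 dpc (x axis) for each of the 17 probes (y axis), BA in red and CH in blue, with 95% confidence intervals from limma; filled points were called at an adjusted p under 0.05. The *MYF5* probes lie between −2.40 and −1.83, the *MYF6* probes between 1.11 and 1.67, the 2 *MYOG* probes on opposite sides of 0, and the brightest *MYOD1* probe has the widest interval.

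Within the breeds, 8 of the 17 probes were called between 260 and 110 dpc in BA and 12 in CH, where 52.4% and 52.2% of all probes were called. Of these, 5 were higher and 3 lower at 260 dpc in BA (27.6% and 24.8% of all probes), and 6 higher and 6 lower in CH (27.5% and 24.7%). All 3 *MYF5* probes, all 3 *MYF6* probes, the dimmer *MYOG* probe and the brightest *MEF2A* probe were called in both breeds. The brighter *MYOG* probe, A_73_P326256 of *MEF2A* and 2 of the *MEF2C* probes were called in CH alone. A call in one breed alone is no difference between breeds. The test of that difference, a breed by stage term, called 0 of the 17 probes and 0% of all (lowest limma adjusted p = 0.764).

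By step, 7 of the 17 probes were called between 110 and 180 dpc, 3 between 180 and 210 dpc and 9 between 210 and 260 dpc. The shares of all probes called in these steps were 24% (12.5% higher, 11.4% lower), 9.69% (5.35% and 4.33%) and 44.7% (24.8% and 19.9%). Of the 17 probes 4, 1 and 4 were called higher. The first step held *MYF5*, *MYF6* and the dimmer *MYOG* probe. The last added *MEF2A* and *MEF2C*, while of the *MYF6* probes only A_73_P034951 was called in it. The count for the middle step was the least stable: it was 0 without BA 180 dpc replicate 1, 1 without BA 210 dpc replicate 1, CH 180 dpc replicate 1 or CH 210 dpc replicate 3, and 4 without CH 210 dpc replicate 1, CH 260 dpc replicate 1 or CH 260 dpc replicate 3. It was 2 without a further 10 of the arrays taken singly.

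Between the breeds, no myogenic factor passed the test. On the average of the 4 stages limma called 0 of the 17 probes, against 0.358% of all probes (0.194% higher and 0.164% lower in BA). An unadjusted p under 0.05 was found for 3 of the 17, and the share of all probes with such a p was not counted. The lowest adjusted p was 0.0851, for the *MYF5* probe A_73_119356. Its levels in BA were 1.98, 2.16 and 1.91 at 110 dpc, 1.41 and 1.17 at 180 dpc, 0.57, 0.72 and 1.02 at 210 dpc and 0.24 and 0.15 at 260 dpc. In CH they were 1.66 and 1.72, then 1.05, 0.80 and 0.78, then 0.58, 0.43 and 0.21, and finally −0.34, −0.57 and 0.20. The BA values lay above those of CH at 110 and 180 dpc, and they overlapped at 210 and 260 dpc.

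The average difference on this *MYF5* probe was 0.39, BA above CH, with an interval of 0.19 to 0.58. The two-sided exact permutation test of breeds within stages, over 20000 arrangements, gave p = 0.00075 before any adjustment, 1 of 17 such tests. Without CH 260 dpc replicate 3 the difference was 0.44 and called (limma adjusted p = 0.0268). The other 2 *MYF5* probes differed by −0.055 and 0.096 on average, with intervals of −0.24 to 0.13 and −0.076 to 0.27. Neither was called. The interval of −0.076 to 0.27 overlaps that of A_73_119356, and the probes of the gene were not tested against each other.

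The other 2 probes with an unadjusted p under 0.05 were lower in BA. The dimmer *MYOG* probe differed by −0.39 (interval −0.70 to −0.079, limma adjusted p = 0.278, exact permutation p = 0.0268), and the brightest *MYF6* probe by −0.30 (interval −0.54 to −0.065, limma adjusted p = 0.271, exact permutation p = 0.021). On the day-2 arrays alone these were −0.54 and −0.36. The brighter *MYOG* probe differed by 0.035, and the other *MYF6* probes by −0.11 and −0.077. For *MYOD1* the average differences were −0.57, −0.019 and −0.097, for *MEF2A* −0.0077, 0.16 and 0.12, and for *MEF2C* −0.11, 0.049 and −0.093, in order of brightness.

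At single stages limma likewise called 0 of the 17 probes, where 0.273%, 0.00993%, 0% and 0% of all probes were called at 110, 180, 210 and 260 dpc (at 110 dpc 0.228% higher and 0.0447% lower in BA). The probes with an unadjusted p under 0.05 numbered 9 at 110 dpc, 1 at 180 dpc, 2 at 210 dpc and 1 at 260 dpc. How many of all probes did so was not counted, so these numbers are no result about the myogenic factors. At 110 dpc the median difference of the 17 probes was −0.45 against −0.042 over all probes. Of the 17, 13 had the lower mean in BA, and directions over all probes were not counted. The values of the breeds did not overlap at 11 of the 17 probes, 9 with CH above and 2 with BA above, against 29.1% of all probes. At 180, 210 and 260 dpc this held for 7, 1 and 0 probes, where the shares of all probes were 25.5%, 10.5% and 19%.

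At 110 dpc all 3 *MYF6* probes were lower in BA, by −0.57, −0.47 and −0.52, and both *MYOG* probes, by −0.61 and −0.81, none with a limma adjusted p under 0.247. The brightest *MEF2C* probe differed by −0.52 (interval −0.89 to −0.16, limma adjusted p = 0.206) and A_73_P326256 of *MEF2A* by 0.39 (limma adjusted p = 0.241). *MYF5* differed by −0.23, −0.12 and 0.33. The probes of a gene share the same 5 arrays and are no replicates of each other. BA 110 dpc replicate 3 correlated least with the other arrays, with a highest correlation of 0.971 over probes against at least 0.982 for each other array. Without it the median difference of the 17 probes was −0.23, with 12 of 17 lower in BA, A_73_P034951 of *MYF6* differed by −0.23 and the brightest *MEF2C* probe by −0.30. Without CH 110 dpc replicate 1 the median was −0.21, also with 12 of 17 lower, and the *MYF6* differences were −0.40, −0.15 and −0.21. Without BA 110 dpc replicate 1 the median was −0.39, with 13 of 17 lower. It was −0.48 without BA 110 dpc replicate 2 and −0.42 without CH 110 dpc replicate 2, each with 14 of 17 lower. Of the 5 foetuses of 110 dpc, 2 of the 3 BA were male and both CH were female. With sex as a covariate 0 of the 17 probes were called at this stage, as without it. This count cannot show whether sex bears on these differences.

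The largest breed differences in size were those of the brightest *MYOD1* probe, and they changed sign from stage to stage. BA minus CH was −2.64 at 110 dpc (interval −4.60 to −0.68, limma adjusted p = 0.225), 0.98 at 180 dpc, −1.22 at 210 dpc and 0.62 at 260 dpc. On the day-2 arrays alone these were −1.02, 0.65, −2.07 and 0.052, and at 210 dpc the 2 arrays of day 3 gave 1.47. Without CH 110 dpc replicate 2 the 110 dpc difference was −0.81, and without BA 260 dpc replicate 2 that of 260 dpc was −0.22. The 210 dpc difference was −0.48 without CH 210 dpc replicate 3 and −2.20 without CH 210 dpc replicate 1. The other 2 *MYOD1* probes had −0.45 and −0.75 at 110 dpc and 0.47 and 0.38 at 180 dpc, the same signs as the brightest, but −0.0092 and 0.022 at 210 dpc and −0.085 and −0.038 at 260 dpc.

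**Figure D5:**
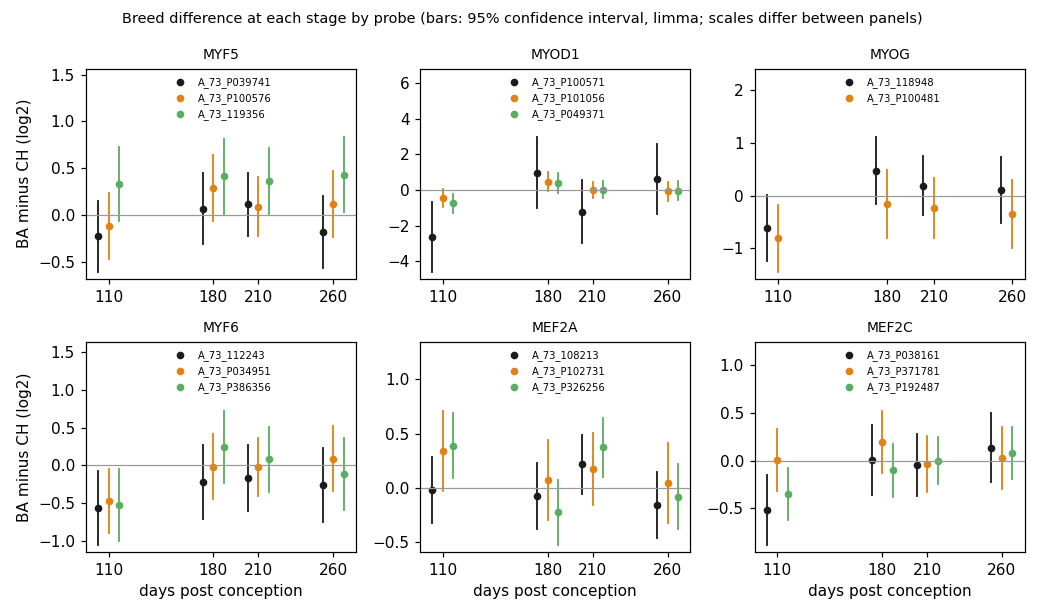
Breed difference (BA minus CH, log2, y axis) at each stage (days post conception, x axis) for each probe of the 6 genes, with 95% confidence intervals from limma; probes of a gene are set side by side in order of brightness, and the panels have different scales. At 110 dpc all probes of *MYF6*, *MYOG* and *MYOD1* lie below 0, the brightest *MYOD1* probe has the widest intervals, and the *MYF5* probe A_73_119356 lies between 0.33 and 0.43 at every stage.

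The genes that act with the myogenic factors were counted by their brightest tested probe, where 65.3% of 7932 genes were called between 260 and 110 dpc, 33.8% higher and 31.5% lower, with a median difference of 0.034. None of those tested was called in the average breed difference, against 0.403% of these genes (0.177% higher and 0.227% lower in BA). All 3 E proteins, the bHLH partners, were lower at 260 dpc, with a median of −1.14. *TCF3* fell by 1.48 (limma adjusted p = 6.35e-07), *TCF12* by 1.14 and *TCF4* by 0.70, and all 3 stayed lower under every scaling tried.

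Of 16 genes listed as inhibitors of myogenic bHLH factors 11 were tested, 3 higher and 5 lower, with a median of −0.14. The higher ones were led by *BHLHE40* at 2.04 and *BHLHE41* at 1.68, a pair of related circadian repressors, and included *ID3*, an HLH protein without a DNA-binding part, at 0.39. Among the lower ones were *SNAI2*, a zinc finger repressor that binds E boxes, at −1.10 and *MDFI*, an inhibitor that binds the MyoD family, at −0.96. A further 4 had a probe but did not pass the filter, which asks for a level above 0 in nearly all groups, and their mean levels were lower at 260 dpc. These untested differences were −2.25 for *SNAI1*, −1.40 for *TWIST1* and −1.52 for *TWIST2*, all well above background on all 21 arrays, and −2.99 for *MSC*, which was so on 14. With median scaling 2 rather than 5 were called lower, and with normexp the median was 0.0088.

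Of 19 MEF2 partners and repressors 9 were tested, 6 higher and 2 lower, with a median of 0.40. *HDAC5*, a class II deacetylase, rose by 2.04 (limma adjusted p = 2.2e-11) and *PPARGC1A*, the coactivator of mitochondrial biogenesis, by 1.37 (limma adjusted p = 2.2e-05). *SMARCD3*, a subunit of the SWI/SNF remodelling complex, rose by 0.99 and *SMYD1*, a muscle methyltransferase, by 0.93. *MEF2B* fell by 0.41 and *VGLL2*, a cofactor of TEAD proteins, by 0.40. *SRF* and *NFATC1* did not pass the filter, and their untested differences were 1.70 and 0.80. The count of those higher was 4 in the authors' unscaled table, where the median was 0.0094.

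Upstream of the factors, *LBX1*, a homeobox gene of migrating precursors, rose by 0.88 and *SOX6*, a repressor of slow fibre genes, by 0.74. *EYA2*, a coactivator of sine oculis homeobox proteins, fell by 0.91 and *SIX2* by 0.50 (limma adjusted p = 0.0478 for *SIX2*). With normexp, quantile normalization and median scaling only 1 of these 2 was called lower. Neither *LBX1* nor *SOX6* was called in the authors' table, and with quantile normalization *SOX6* was called and *LBX1* was not. The *PAX3* probe was well above background on 0 arrays and was not tested.

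With no probe assigned to *PAX7*, other genes of satellite cells and progenitors were counted: 10 of 15 were tested, 5 fell and 2 rose, with a median of −0.48. *CDH15*, the M-cadherin of myoblasts and satellite cells, fell by 2.06 (limma adjusted p = 1.89e-08), *NCAM1* by 1.87, *FGFR4* by 1.46, *SPRY1* by 0.85 and *MEGF10* by 0.48. The 2 that rose were *MET*, the receptor of hepatocyte growth factor, by 1.41 and *CXCR4* by 0.57. Other cell types of the muscle can also express genes of this list. In which cells those that fell or rose had changed was not tested. The authors' table had 7 of the 10 lower and 1 higher. *SDC3*, well above background on 8 arrays, did not pass the filter, with an untested difference of −1.79.

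Of 17 known targets of the myogenic factors 15 were tested, 6 higher and 7 lower, with a median of −0.065 that was 0.036 with median scaling. Among those lower were *MYMK*, the myoblast fusion protein, at −4.54 (limma adjusted p = 2.1e-11), the embryonic light chain *MYL4* at −4.21, the foetal acetylcholine receptor subunit *CHRNG* at −2.77 and the embryonic heavy chain *MYH3* at −0.83. The cell cycle inhibitors *CDKN1A* and *CDKN1C*, which myoblasts switch on as they leave the cycle, fell by 2.97 and 1.52. Among those higher were *ENO3* at 3.30, *CKM* at 3.11, *STAC3* at 1.22 and *DES* at 1.03.

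Markers of other cells moved over the same stages. All 6 muscle fibre markers tested, 3 of them (*CKM*, *DES* and *MYL1*) also among the targets, were higher at 260 dpc (5 of 6 with quantile normalization and in the authors' table), 4 of 5 fibroblast markers were lower, and the 1 proliferation marker tested, *PCNA*, had a difference of −0.61. The proliferation markers *CCNB1* and *CDK1* were well above background on all 21 arrays but did not pass the filter, and their untested differences were −2.58 and −2.61. The mean level of the fibroblast markers lay between 7.06 and 7.93 on the arrays of 110 dpc and between 6.47 and 7.15 on those of 260 dpc. Among markers of fat cells 1 of 2 was higher, of endothelium 3 of 5 higher and 1 lower, of leukocytes 1 of 3 higher and 1 lower, of Schwann cells 2 of 4 higher and 1 lower, of red cells 2 of 3 lower, and of smooth muscle 1 of 4 higher and 1 lower. Of the markers that did not pass the filter, *ALAS2* of red cells had an untested difference of −2.37 and *SLC4A1* of 2.00, the latter well above background on 1 array. The fat cell markers *CIDEC* and *PLIN1* had 2.97 and 0.43, and the leukocyte markers *CD3E* and *CD14* 3.21 and −0.062. For *SOX10* of Schwann cells it was −0.71. *CIDEC*, *CD3E* and *SOX10* were well above background on 16, 13 and 15 arrays. The endothelial markers were 0 higher and 2 lower in the authors' table. The part of these shifts in the changes of the myogenic factors was not tested.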

How the data were processed

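RNA of 21 foetuses was hybridised to Agilent single-colour bovine arrays. Spot intensities were obtained by the authors with Agilent Feature Extraction 10.7 and deposited without scaling between arrays. The deposited value table holds log2 intensities, of which 99.9958% of 649670 lay less than 0.01 from the log2 of the spot's processed intensity. Control spots and 258 outlier spots were left out and spots of a probe averaged. No spot was saturated. The log2 intensity was reduced by the 75th percentile of its array (525 to 1174, median 706), and 2.69 was added. A probe was tested where its mean was above 0 in at least 7 of 8 groups. Probes were named through RefSeq accessions of the ARS-UCD2.0 annotation. Since the probes were designed on an older assembly, no coordinates are given. Probe and promoter sequences were not analysed here. Part of the list of upstream lineage genes, and so its counts, is not reported here.

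Means of the 8 groups were fitted over all 21 arrays with limma 3.58.1 in R 4.3.3 (data.table, version 1.17.8), with 13 residual and 3.79 prior degrees of freedom. Confidence intervals are at 95%. On simulated data with 200 of 20052 probes shifted, the fit recovered 96% between stages (10 false calls) and 99.5% between breeds (12 false calls). In the real data 64.1% of the probes were called between stages. The recovered shares therefore do not give the power for the differences reported here, and a probe not called between breeds is not shown to be equal.

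The text names every probe of the myogenic factors, represents another gene by its brightest probe, and names from each list the 2 called genes with the largest difference between 260 and 110 dpc and, for each factor, the genes with the most alike course. Further genes of the lists were named after their values were seen. The factors and lists were chosen with earlier results of these data known. The alternatives were normexp (offset 50), quantile normalization, median scaling, the authors' values, detection in place of the level as a filter, no filter, sex or scan day as a term, slide or replicate number as a block, a trended robust variance, the second brightest probe, each array left out, and the arrays of scan day 2 alone, which was chosen after seeing the data. The replicate numbers showed no pairing of animals: after centring on the group means, the median correlation was 0.028 over 66 pairs of arrays that share a number and −0.0031 over 126 pairs that do not.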

Additional observations from a re-analysis of the deposited data

How the results depend on the processing

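Groups of 2 or 3 arrays limit every comparison, and a fit that leaves 1 array in a group assumes that it varies like the others. The falls of *MYF5* and the rise of the dimmer *MYOG* probe between 110 and 260 dpc kept their direction and their call under every alternative, with each array left out and on the day-2 arrays alone.

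Counts of called probes moved as follows. Between 180 and 210 dpc, 3 became 0 in the authors' table and with slide as a block, 1 with no filter and 5 with scan day as a term. On the day-2 arrays alone, with 12 of the 21 arrays, the counts of the 3 steps were 3, 0 and 5. With single arrays left out the count was 10 to 11 between 110 and 260 dpc, 7 to 9 in BA, 10 to 13 in CH, 5 to 7, 0 to 4 and 7 to 10 in the 3 steps, 0 to 1 for the average breed difference, and 0 at each stage and for breed by stage. With the replicate number as a block, a pairing that the arrays do not show, the count between 110 and 260 dpc was again 10 and no call on the values checked changed.

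The following values changed direction, and the cause was not tested. With the second brightest probe, the differences between 260 and 110 dpc became 2.87 for *MYOG* (3.098 in BA, 2.64 in CH), −0.13 for *MEF2A* (−0.28 in BA) and 0.11 for *MEF2C* (0.10 in CH), the *MYOG* steps 0.77 and 1.45 (110 to 180 and 210 to 260 dpc), and the breed differences 0.096 for *MYF5*, −0.39 for *MYOG*, 0.16 for *MEF2A*, 0.049 for *MEF2C* and, at 260 dpc, −0.085 for *MYOD1*. In the authors' table the difference was −0.26 for *MEF2C* in BA, −0.28 for A_73_P371781, −0.035 for the last step of *MYF6* and 0.047 for the breed difference of *MEF2A*. The latter was 0.0086 with quantile normalization, 0.028 with scan day as a term, 0.0013 with sex and 0.015 with slide as a block. The difference was −0.045 for *MEF2C* in BA with quantile normalization, 0.047 for *MYOD1* with median scaling and −0.22 for *MYOD1* in BA with slide as a block. The breed difference of *MYOG* was −0.0042 with median scaling and −0.0016 with sex. On the day-2 arrays alone the differences were 0.41 for *MYOD1*, −0.13 for *MEF2C* in BA, −0.032 for A_73_P371781 and 0.062 for the first *MYOG* step.

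With single arrays left out, ranges that crossed 0 were −0.97 to 0.86 for *MYOD1* and −3.52 to 0.15 for *MYOD1* in CH, −0.069 to 0.31 for *MEF2C* in BA, −0.26 to 0.090 for the first *MYOG* step, −0.053 to 0.12 and −0.040 to 0.027 for the breed differences of *MYOG* and *MEF2A*, and −0.22 to 1.46 for that of *MYOD1* at 260 dpc.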
